A study of Homo sapiens with 30 samples.

Results

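The transcription of 9 genes was followed across every treatment of the series: GCLC, GCLM, NQO1, TXNRD1, SRXN1, AKR1B10, AKR1C1, AKR1C2 and AKR1C3. They were taken by name as established transcriptional targets of NRF2, and each matched 1 row of the 58780-gene count table. All 9 members had enough reads to enter the test, among 22919 genes that did. Their levels came from PRO-seq, in which nuclei of permeabilised cells extend RNA that engaged polymerases are already making, so a count reflects transcription under way and not the steady-state mRNA.

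NRF2, encoded by NFE2L2, is a transcription factor that pairs with small MAF proteins on antioxidant response elements and switches on genes for glutathione synthesis, the thioredoxin system and carbonyl and quinone reduction. KEAP1 holds NRF2 down by delivering it to a CUL3 ubiquitin ligase for degradation. A549, a human lung adenocarcinoma line, is known to carry a loss-of-function KEAP1 mutation, and its NRF2 targets are known to run at a high basal rate. All 30 libraries came from this 1 line, so no KEAP1-normal cell was compared, and the genotype itself was not examined here.

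The 30 libraries form 15 groups of 2 replicates, and every group received 0.01% DMSO. The untreated control, labelled as a 15 min treatment, served all time points. Dexamethasone (Dex, a synthetic glucocorticoid) was given at 100 nM for 15 min or 3 h. GSK591, an inhibitor of the Type II arginine methyltransferase PRMT5, and MS023, an inhibitor of the Type I arginine methyltransferases, were each given at 1 µM. Either inhibitor was given together with Dex for 3 h, alone for 2, 4 or 7 days, or for 7 days with a Dex treatment of 15 min or 3 h after it. The labels do not say whether the 2 replicates came from separate cultures, so the p-values measure only the spread between these samples, which may be technical. In such bulk libraries fewer transcribing cells and less transcription per cell cannot be told apart.

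Total counts per library ran from 8441211 to 13069598, of which 58.7% to 78.7% fell on mitochondrial genes, leaving 2541528 to 3957508 nuclear counts. The mitochondrial share was 76.0% and 73.4% in the untreated libraries and 58.7% to 66.1% in the 10 libraries given MS023 for days, so the scaling between libraries matters for the MS023 comparisons. Levels are given as CPM, the count scaled to a common library size after TMM normalisation, which centres on the bulk of genes. Replicates correlated at r = 0.924 to 0.984 over the 11117 genes averaging 5 CPM or more. The lowest of these belonged to Dex with MS023 at 3 h, whose replicate 2 stood apart from replicate 1 (61.0% against 71.2% mitochondrial counts), and results are given with and without that library where it mattered. The epithelial markers KRT8, KRT18, KRT19, EPCAM and CDH1 were all at 1 CPM or more on average and summed to 238 to 655 CPM. Summed endothelial, leukocyte and fibroblast markers reached at most 2.52, 5.82 and 10.5 CPM in any library, with PTPRC, CD3E, VWF and DCN too low to test.

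The members lie on 7 autosomes (GENCODE 29, GRCh38). GCLC spans chr6:53497341-53616970 on the minus strand, GCLM chr1:93885205-93909456 on the minus strand, NQO1 chr16:69706996-69726951 on the minus strand, TXNRD1 chr12:104215779-104350305 on the plus strand and SRXN1 chr20:646615-653370 on the minus strand. AKR1B10 spans chr7:134527592-134541408 on the plus strand. AKR1C1 (chr10:4963253-4983283, plus strand), AKR1C2 (chr10:4987400-5018031, minus strand) and AKR1C3 (chr10:5035354-5107686, plus strand) are neighbours in 1 cluster. Each is a protein-coding gene, and the feature type that was counted is not given in the sources used here.

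The antioxidant response element has the core TGACNNNGC, and that core was searched on both strands in the RefSeq promoter windows (GRCh38.p14, 250 bases before to 50 after the transcript start). It was present in 13.3% of 35116 windows of all genes and in 3 of the 10 windows that 8 members had (AKR1B10 had none in the table). Those 3 windows belong to GCLM and TXNRD1, the members that fell furthest from the counts with Dex for 3 h against untreated cells, and are shown for that reason. The windows of GCLC, also called lower there, and of SRXN1, lowest in the authors' deposited table (-1.77), held no core. Among 54 other genes of the pathway lists, 18 of 82 windows (22.0%) held it. A link between the core and the response to Dex was not tested. The 3 windows with the core are printed 5′ to 3′ on the gene's strand up to 30 bases past the start, with the core in capitals. The GCLM window (chr1:93909401-93909680, minus strand) holds TGACTAAGC on the opposite strand, 34 bases before the start. The upstream TXNRD1 window (chr12:104215529-104215808, plus strand) holds TGACTTCGC 99 bases and, on the opposite strand, TGACGGAGC 8 bases before the start, and the downstream one (chr12:104286782-104287061, plus strand) holds TGACAAAGC on the opposite strand, 102 bases before its start. A match is a description of the letters and not evidence of binding, and a window without one says nothing about more distant elements.
GCLM: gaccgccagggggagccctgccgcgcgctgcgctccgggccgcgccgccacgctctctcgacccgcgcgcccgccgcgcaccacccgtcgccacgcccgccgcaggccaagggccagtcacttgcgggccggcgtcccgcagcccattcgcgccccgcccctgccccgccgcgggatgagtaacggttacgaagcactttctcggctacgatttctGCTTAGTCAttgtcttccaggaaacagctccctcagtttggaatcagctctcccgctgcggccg
TXNRD1 upstream start: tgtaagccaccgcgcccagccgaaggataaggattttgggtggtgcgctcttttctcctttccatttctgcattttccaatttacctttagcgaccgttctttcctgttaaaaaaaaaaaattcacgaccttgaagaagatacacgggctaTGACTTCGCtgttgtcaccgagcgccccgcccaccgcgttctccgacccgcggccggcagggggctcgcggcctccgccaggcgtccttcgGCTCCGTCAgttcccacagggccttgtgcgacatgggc
TXNRD1 downstream start: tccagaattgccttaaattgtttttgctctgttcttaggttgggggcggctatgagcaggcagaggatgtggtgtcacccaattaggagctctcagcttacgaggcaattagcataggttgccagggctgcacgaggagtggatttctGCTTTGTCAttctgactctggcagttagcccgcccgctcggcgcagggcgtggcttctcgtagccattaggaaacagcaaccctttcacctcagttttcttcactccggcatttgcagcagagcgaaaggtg

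AKR1C1 and AKR1C2 are near-identical copies, and their promoter windows are shown because their transcription nevertheless parted under Dex, as described further on. The 300-base windows matched at 288 of 296 aligned positions (97.3%), and the coding sequences at 950 of 969 (98.0%). AKR1C3 was more distant, at 91.8% coding identity to AKR1C1. Within the printed 280 bases of AKR1C1 (chr10:4963165-4963444, plus strand) and AKR1C2 (chr10:5003828-5004107, minus strand), capitals mark the bases that differ, 7 in AKR1C1, among them the 4-base AAGA run that AKR1C2 lacks, and 3 in AKR1C2. Neither window holds the element's core. Of all 36-base words in the transcripts, 33.1% of those of AKR1C1 also occur in AKR1C2 and 44.6% of those of AKR1C2 in AKR1C1, so reads can be exchanged between the 2 genes if the aligner could not place them, and their separate values are uncertain to that extent.
AKR1C1: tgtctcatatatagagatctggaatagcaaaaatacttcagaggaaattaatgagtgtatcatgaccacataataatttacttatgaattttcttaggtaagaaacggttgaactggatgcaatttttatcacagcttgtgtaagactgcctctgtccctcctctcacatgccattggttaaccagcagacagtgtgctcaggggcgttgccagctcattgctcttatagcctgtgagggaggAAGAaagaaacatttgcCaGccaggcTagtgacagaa
AKR1C2: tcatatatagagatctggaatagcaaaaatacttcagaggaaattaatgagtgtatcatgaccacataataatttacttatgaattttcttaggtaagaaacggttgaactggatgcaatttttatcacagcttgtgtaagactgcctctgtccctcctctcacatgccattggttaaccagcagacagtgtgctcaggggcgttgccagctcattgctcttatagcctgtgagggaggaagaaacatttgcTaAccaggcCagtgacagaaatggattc

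In untreated cells, per length of exon, the members were among the more strongly transcribed of the protein-coding genes tested. The counted feature is not given, and if introns were counted too, this length would be too short. AKR1B10 has 1744 exonic bases in a gene of 13817, and GCLC 8646 in one of 119630. The ranks therefore hold only for counts over exons. AKR1B10 stood at 96.9 and 84.4 CPM per kilobase in the 2 untreated libraries, rank 35 of 14978 protein-coding genes tested. TXNRD1 (40.8 and 34.7) was at rank 103, AKR1C1 (18.6 and 16.9) at rank 284 and AKR1C2 (18.9 and 15.7) at rank 299. NQO1, AKR1C3 and SRXN1 were at ranks 811, 938 and 1125. GCLC (4.98 and 4.02) and GCLM (4.86 and 4.05) had the lowest per-length levels of the 9, at ranks 2551 and 2588, which is still the top 17.3% of the protein-coding genes tested. The regulators were also transcribed: NFE2L2 stood at 31.6 and 31.8 CPM and KEAP1 at 44.9 and 48.5 CPM.

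**Figure D1:**
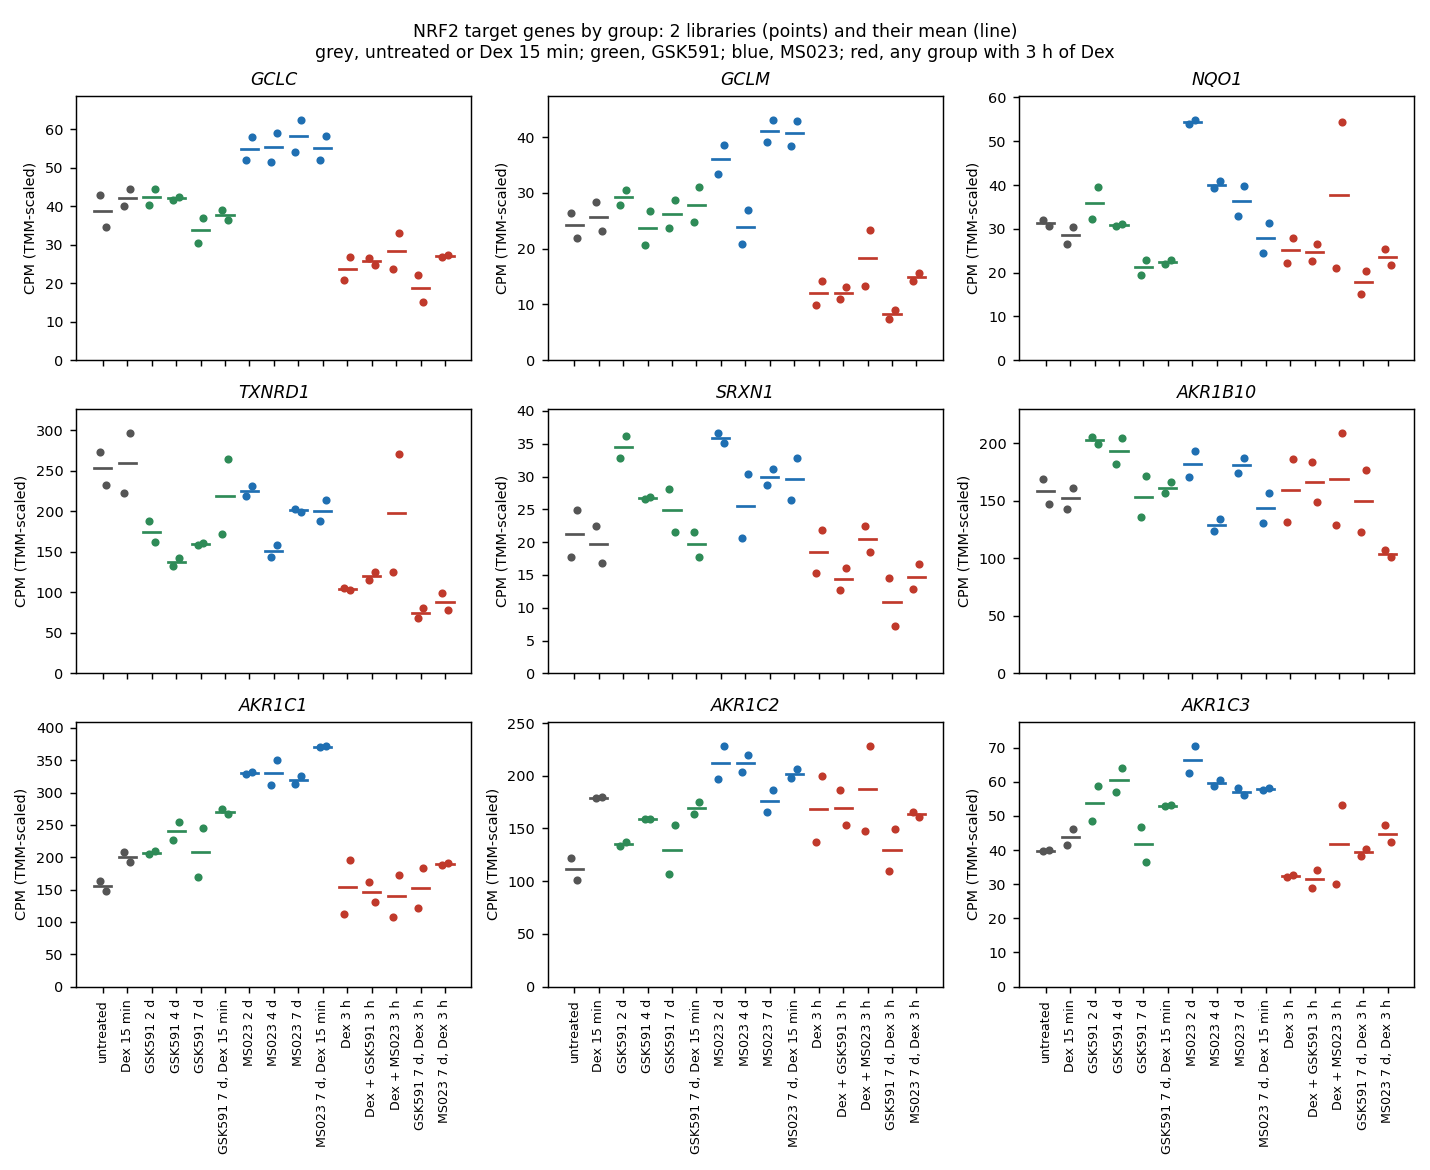
Level of each of the 9 members (CPM after TMM scaling, 1 panel a gene) in the 15 groups, with 1 point a library and a line at the mean of 2. GCLC, GCLM and TXNRD1 are low in the groups with 3 h of Dex, and GCLC and AKR1C1 are high in the groups given MS023 for days without 3 h of Dex.

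GCLC and GCLM encode the catalytic and the modifier subunit of glutamate-cysteine ligase, the rate-limiting enzyme of glutathione synthesis. GCLC was at 43.0 and 34.8 CPM in the untreated libraries. It was at 20.9 and 26.7 CPM after 3 h of Dex, at 54.2 and 62.5 CPM after 7 days of MS023 and at 30.6 and 37.0 CPM after 7 days of GSK591. Its 15 group means ran from 58.4 CPM (MS023 for 7 days) down to 18.7 CPM (GSK591 for 7 days, then Dex for 3 h), a 3.12-fold span. The replicates of neighbouring groups in that order overlapped in 12 of 14 steps. One of the 2 steps without overlap set the 4 groups given MS023 for days and no 3 h of Dex (51.7 to 62.5 CPM in 8 libraries) apart from the rest (15.3 to 44.6 CPM in 22 libraries).

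GCLM had the widest span of the 9 members, 5.00-fold, and was highest and lowest in the same groups as GCLC. It was at 26.4 and 22.0 CPM untreated, 9.99 and 14.3 CPM after 3 h of Dex, and 7.39 and 9.06 CPM when 3 h of Dex followed 7 days of GSK591. After 7 days of MS023 it was at 39.1 and 43.1 CPM, but after 4 days of MS023 it was at 20.8 and 27.0 CPM, within the untreated range or next to it. Over the 15 group means (log2 CPM) GCLC and GCLM followed each other at r = 0.933, the closest pair among the 9 members. This is a description over groups that share the scaling of the same libraries.

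NQO1 encodes a quinone reductase that uses NADH or NADPH. It was at 32.0 and 30.7 CPM untreated, 53.9 and 54.9 CPM after 2 days of MS023, and 19.5 and 22.9 CPM after 7 days of GSK591. Its widest pair was Dex with MS023 at 3 h, with 21.1 CPM in replicate 1 and 54.4 CPM in replicate 2, which span nearly the whole range of the other groups. Neighbouring groups overlapped in 11 of 14 steps of its order.

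TXNRD1 encodes the cytosolic thioredoxin reductase, and SRXN1 encodes sulfiredoxin, which restores over-oxidised peroxiredoxins. TXNRD1 was at 274 and 233 CPM untreated and at 105 and 102 CPM after 3 h of Dex. It was at 132 and 143 CPM after 4 days of GSK591 and at 144 and 158 CPM after 4 days of MS023, so both inhibitor groups lay below the untreated pair at that time. Untreated and 15 min Dex cells held its highest means (253 and 259.7 CPM), whereas the other 8 members peaked in a group given one of the inhibitors for days. SRXN1 was much lower in counts (63 to 431 a library). It went from 17.7 and 24.9 CPM untreated to 36.7 and 35.1 CPM after 2 days of MS023 and 32.8 and 36.2 CPM after 2 days of GSK591. Its values are uncertain, because 85.0% of its exonic bases lie under AL121758.1, annotated on the same strand.

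AKR1B10, AKR1C1, AKR1C2 and AKR1C3 encode aldo-keto reductases, enzymes that use NADPH to reduce carbonyls, and the AKR1C members also act on steroids and prostaglandins. AKR1B10 ran from a mean of 202.5 CPM (GSK591 for 2 days) to 103.9 CPM (MS023 for 7 days, then Dex for 3 h), with overlap in 13 of 14 steps. AKR1C1 stood at 163 and 148 CPM untreated and at 311 to 372 CPM in all 8 libraries given MS023 for days without 3 h of Dex, above the 274 CPM of the highest other library. AKR1C3 had the tightest untreated pair (39.8 and 39.9 CPM) and rose to 62.5 and 70.5 CPM after 2 days of MS023. AKR1C2 was the only one of the 9 with its lowest mean in untreated cells (122 and 101 CPM).

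The first comparison asked what 3 h of Dex did to the members. Against untreated cells, TXNRD1 fell to 0.410 of the control, GCLM to 0.50 and GCLC to 0.612, and no member was called higher. In log2 terms these were -1.29 ± 0.27 (SE) for TXNRD1 (adjusted p = 0.0047), -1.0 ± 0.23 for GCLM (adjusted p = 0.0071) and -0.71 ± 0.15 for GCLC (adjusted p = 0.0012), by edgeR's quasi-likelihood test with Benjamini-Hochberg adjustment over 22919 genes (n = 2 libraries a group). For each of the 3 genes both Dex libraries lay below both untreated libraries. The 3 called members of 9 compare with 10.5% of all tested genes called in either direction, with 6.11% called higher and 4.41% lower. Of the 11117 genes averaging 5 CPM or more, among which all 9 members lie, 16.2% were called. AKR1C1 (-0.01), AKR1B10 (0.01), SRXN1 (-0.21), AKR1C3 (-0.29) and NQO1 (-0.33) were not called in edgeR's test, nor was AKR1C2 at 0.59 ± 0.22 (adjusted p = 0.099). The authors' deposited table calls all 5 of these lower and AKR1C2 higher, and its calls are set out further on. The median log2 change of the 9 was -0.29, beside -0.01 over all genes tested.

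Single libraries carried part of this. Without untreated replicate 1, GCLC (-0.55, adjusted p = 0.0570) and GCLM (-0.86, adjusted p = 0.0836) missed the threshold in edgeR's test, as they did without Dex 3 h replicate 1 (-0.54, adjusted p = 0.0648 and -0.75, adjusted p = 0.114), while TXNRD1 kept its call in every such fit. Scaled to total counts, which include the mitochondrial ones and moved the median of all genes by 0.16, none of GCLC (-0.52, adjusted p = 0.220), GCLM (-0.81, adjusted p = 0.0708) or TXNRD1 (-1.11, adjusted p = 0.0816) passed, and AKR1C2 did (0.80, adjusted p = 0.0206). AKR1C2 also passed without replicate 2 of Dex with MS023 (0.59, adjusted p = 0.0492), without Dex 3 h replicate 1 (0.84, adjusted p = 0.0328) and in DESeq2 (0.60, adjusted p = 0.0296).

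Dex for 3 h was given in 2 further settings that share no library with the first. After 7 days of GSK591, 4 members fell, beside 9.85% of all genes called (5.39% higher, 4.46% lower): GCLM from 23.7 and 28.8 CPM to 7.39 and 9.06 CPM (-1.67 ± 0.25, adjusted p = 7.9e-05), SRXN1 by -1.19 ± 0.30 (adjusted p = 0.017), TXNRD1 by -1.10 ± 0.27 (adjusted p = 0.016) and GCLC by -0.85 ± 0.16 (adjusted p = 0.00024), all by edgeR's test. After 7 days of MS023, 5 members fell, beside 11.1% of all genes called (5.72% higher, 5.38% lower). GCLM went from 39.1 and 43.1 to 14.1 and 15.7 CPM (-1.46 ± 0.21, adjusted p = 3.3e-05) and GCLC from 54.2 and 62.5 to 26.9 and 27.4 CPM (-1.10 ± 0.14, adjusted p = 2.6e-07). TXNRD1 (-1.19, adjusted p = 0.0072), SRXN1 (-1.03, adjusted p = 0.017) and AKR1B10 (-0.80, adjusted p = 0.023) were the other 3. Of the genes averaging 5 CPM or more, 14.4% were called after GSK591 and 15.8% after MS023. GCLC, GCLM and TXNRD1 were thus called lower in 3 of 3 settings, SRXN1 in 2 and AKR1B10 in 1.

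These calls did not all outlast the loss of a library. After GSK591, TXNRD1 missed the threshold without any 1 of the 4 libraries compared (-0.99 to -1.23, adjusted p 0.0596 to 0.127). SRXN1 missed it without GSK591 7 days replicate 1 (-0.98, adjusted p = 0.186) or without replicate 2 of that treatment with Dex (-0.78, adjusted p = 0.185). After MS023, AKR1B10 missed it without any 1 of the 4 libraries (adjusted p 0.0839 to 0.164). SRXN1 missed it without MS023 7 days replicate 1 (adjusted p = 0.0622), without its replicate 2 (adjusted p = 0.115) or without replicate 1 of MS023 then Dex (adjusted p = 0.184), and TXNRD1 without replicate 2 of MS023 then Dex (-1.02, adjusted p = 0.107). GCLC and GCLM stayed past the threshold in all 8 of these fits. Replicate 2 of Dex with MS023 at 3 h takes no direct part but feeds the common estimate of spread. Without it NQO1 (-0.62), AKR1C1 (-0.75) and AKR1C3 (-0.35) also passed after MS023, with estimates like those of the full fit. That fit was chosen after the data were seen. It also changed the number of all genes called in other comparisons, so these passes are not a result about the members. Scaled to total counts, GCLM kept its call after GSK591 and GCLC, GCLM and AKR1B10 kept theirs after MS023.

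**Figure D2:**
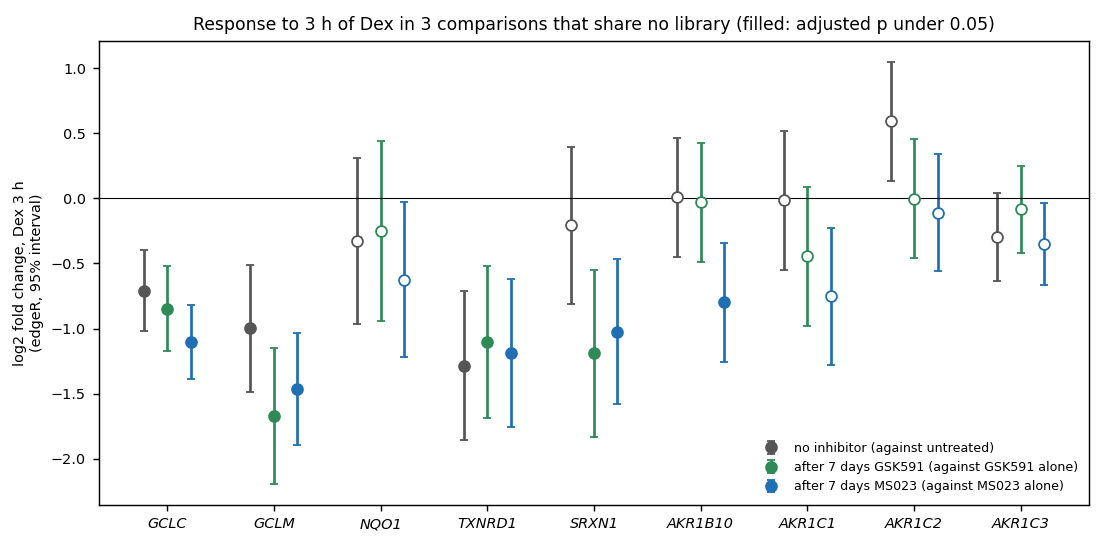
Log2 change of each member with 3 h of Dex (points, edgeR estimates; bars, 95% intervals) from untreated cells, from 7 days of GSK591 and from 7 days of MS023. GCLM has estimates of -1.0, -1.67 and -1.46, and AKR1C2 has 0.59, 0.00 and -0.11.

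Read over libraries rather than fits, the low levels under Dex were shared widely. There were 10 libraries with 3 h of Dex in some form, and 9 of the 10 lay below all 20 other libraries for GCLC, for GCLM and for TXNRD1. This split was noticed after the values were seen and has no test, and 0.973% of all genes tested had at least 9 of 10 such libraries lower. The exception was the same each time, replicate 2 of Dex with MS023, with 33.1 CPM of GCLC, 23.4 CPM of GCLM and 271 CPM of TXNRD1. SRXN1 had 7 of the 10 below all others, AKR1C3 5, AKR1C1 4, AKR1B10 3 and NQO1 1, and AKR1C2 had 0.

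Whether 7 days of an inhibitor altered the response to 3 h of Dex was tested as the difference between the 2 responses. No member passed for GSK591 or for MS023, where 0.223% of all genes (51 genes) passed in each and 2035 and 2087 genes had an unadjusted p under 0.05. DESeq2 called none either, and with only the compared groups in the fit 1 member passed for MS023. The widest estimates were for SRXN1, -0.98 (95% interval -1.86 to -0.10, adjusted p = 0.50) with GSK591 and -0.82 (-1.64 to 0.00, adjusted p = 0.55) with MS023, followed in the latter by AKR1B10 at -0.81 (-1.45 to -0.16, adjusted p = 0.40). For GCLC the interval ran from -0.59 to 0.31 with GSK591 and from -0.81 to 0.03 with MS023, and for TXNRD1 from -0.63 to 0.99 and from -0.70 to 0.90. Differences of up to those sizes lie within the intervals.

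Dex for 15 min was tested next. In edgeR's test no member passed against untreated cells, where 1.26% of all genes were called and 1749 had an unadjusted p under 0.05. The authors' deposited table for 15 min calls GCLC (0.27), AKR1C2 (0.61) and AKR1C1 (0.26) higher, beside 3.93% of genes with an adjusted p. The largest edgeR estimate was for AKR1C2, from 122 and 101 CPM to 179 and 179.8 CPM (0.68 ± 0.21, adjusted p = 0.24), with no overlap between the pairs. DESeq2 called AKR1C2 (0.69, adjusted p = 0.025), as did edgeR on total-count scaling (1.02, adjusted p = 0.0062). From the counts GCLC (0.12), GCLM (0.10) and TXNRD1 (0.04) were near 0 at 15 min, beside their falls at 3 h against the same untreated libraries. No member passed at 15 min after 7 days of GSK591 (2.09% of all genes called, 3115 with an unadjusted p under 0.05) or after 7 days of MS023 (2.07%, 2475 genes), and DESeq2 called no member in either.

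When an inhibitor was added to Dex for the same 3 h, no member passed against Dex alone. With GSK591 no gene in the table passed (0.0% called, 1306 genes at an unadjusted p under 0.05, 0 genes in DESeq2), and the members' estimates against Dex alone ran from -0.36 for SRXN1 to 0.21 for TXNRD1. With MS023 no member passed beside 0.196% of all genes called and 3222 at an unadjusted p under 0.05. The estimates for TXNRD1 (0.93 ± 0.27, adjusted p = 0.14), GCLM (0.62) and NQO1 (0.60) in that comparison rested on replicate 2. In replicate 1 TXNRD1 was at 125 CPM, GCLM at 13.3 CPM and NQO1 at 21.1 CPM, beside 105 and 102, 9.99 and 14.3, and 22.2 and 28.0 CPM in the Dex 3 h libraries. With replicate 1 left out, which raised the genes called from 45 to 2388 (9.58% of those tested), GCLM (0.95, adjusted p = 0.0013), NQO1 (1.11, adjusted p = 2.8e-07), TXNRD1 (1.37, adjusted p = 0.00012) and AKR1C3 (0.70, adjusted p = 0.00017) passed, and with replicate 2 left out none did. DESeq2 on all libraries called TXNRD1 (0.95, adjusted p = 0.041).

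The inhibitors alone were followed over 2, 4 and 7 days. MS023 raised GCLC, AKR1C1 and AKR1C3 at all 3 times, AKR1C2 at 2 and 4 days, and GCLM at 7 days, and no member was called lower. AKR1C1 had log2 changes of 1.09, 1.09 and 1.04 (SE 0.25 each, adjusted p = 0.011, 0.0078 and 0.011 in edgeR's test). GCLC changed by 0.50, 0.51 and 0.59 (adjusted p = 0.018, 0.011 and 0.0036) and AKR1C3 by 0.74, 0.58 and 0.52 (adjusted p = 0.0025, 0.012 and 0.026). The counts were 4 of 9 members higher at 2 days, where 10.4% of all genes were called (6.18% higher), 4 at 4 days (14.2%, 7.8% higher) and 4 at 7 days (13.6%, 7.13% higher, 6.51% lower). Of the genes averaging 5 CPM or more, 16.1%, 19.6% and 18.2% were called at 2, 4 and 7 days. The 3 time points share the untreated libraries, so they are not independent of one another.

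AKR1C2 changed by 0.93 (adjusted p = 0.011) and 0.92 (adjusted p = 0.0079) at 2 and 4 days and by 0.66 (adjusted p = 0.052) at 7 days, where the 165 and 187 CPM lay above the untreated 122 and 101 CPM. GCLM stood at 33.4 and 38.6 CPM at 2 days (0.58, adjusted p = 0.081), 20.8 and 27.0 CPM at 4 days (-0.01) and 39.1 and 43.1 CPM at 7 days (0.77 ± 0.20, adjusted p = 0.014). Its levels at 4 days overlapped the untreated pair, while those at 2 and 7 days did not. NQO1 was at 53.9 and 54.9 CPM at 2 days (0.79, adjusted p = 0.087), 39.2 and 40.9 CPM at 4 days and 33 and 39.7 CPM at 7 days, each pair above the untreated one. The 2-day estimates for NQO1 and GCLM passed without replicate 2 of Dex with MS023 (0.79, adjusted p = 4.0e-06 and 0.58, adjusted p = 0.0065), and NQO1 also in DESeq2 (adjusted p = 0.024). AKR1C2 at 7 days passed in the same 2 fits (adjusted p = 0.023 and 0.0096). TXNRD1 was at 144 and 158 CPM at 4 days of MS023, below both untreated libraries (-0.75 ± 0.26, adjusted p = 0.073), and at -0.17 and -0.33 at 2 and 7 days without a call. The authors' deposited tables call TXNRD1 lower at all 3 times, with -0.60 at 4 days.

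With 1 library fewer most of these MS023 calls missed the threshold with little change in size. Without untreated replicate 2, only AKR1C3 at 2 days stayed past it, and AKR1C1 kept log2 changes of 0.97 to 1.03 (adjusted p 0.073 to 0.096) while GCLC dropped to 0.36 to 0.44 (adjusted p 0.11 to 0.25). Without replicate 2 of MS023 none of the 4 members called at each time passed, with the adjusted p running from 0.0530 to 0.200 for 2 days, 0.0598 to 0.142 for 4 and 0.0648 to 0.115 for 7. Without untreated replicate 1, AKR1C1 missed it at each time (adjusted p 0.051 to 0.067) and AKR1C3 at 4 and 7 days (adjusted p = 0.086 and 0.131). Without replicate 1 of MS023, GCLC (adjusted p = 0.062) and AKR1C1 (0.066) missed it at 2 days, AKR1C3 (0.058) at 4 days, and GCLM (0.054), AKR1C1 (0.054) and AKR1C3 (0.146) at 7 days. Scaled to total counts, where the median of all genes moved by 0.67, 0.74 and 1.02 at 2, 4 and 7 days, all of the calls held and 8, 7 and 8 members passed. On that scaling 40.3% and 49.2% of all genes were called at 2 and 4 days, 99.2% and 99.0% of them higher. The larger number at 7 days is given in the closing section. Calls that held on that scaling therefore say little about the members in particular. The lower mitochondrial share of the MS023 libraries moved with MS023, and its part in the change was not tested.

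**Figure D3:**
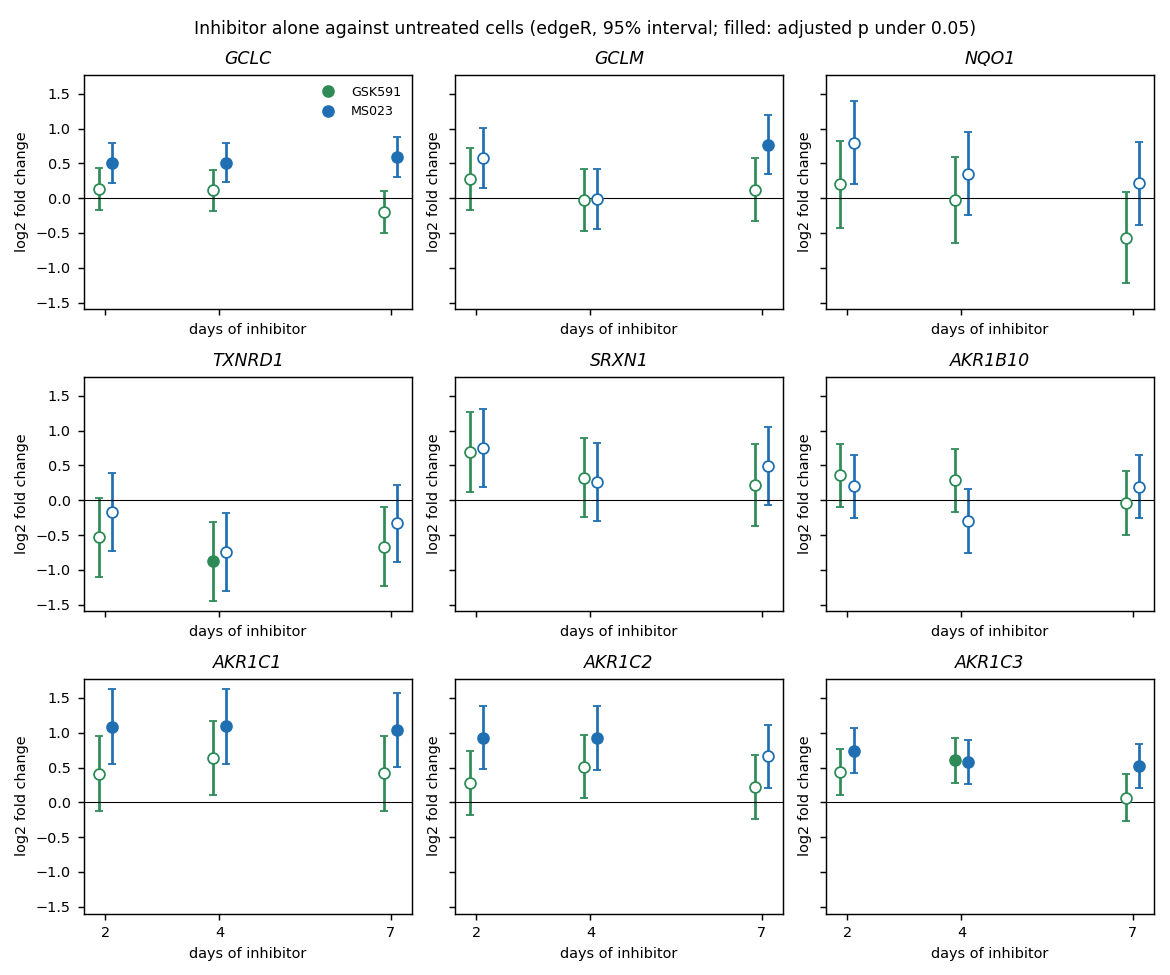
Log2 change of each member after 2, 4 and 7 days of GSK591 or MS023, against untreated cells, 1 panel a gene. Points are edgeR estimates, filled where the adjusted p was under 0.05, and bars are 95% intervals. AKR1C1 has estimates of 1.09, 1.09 and 1.04 with MS023 and 0.41, 0.63 and 0.41 with GSK591.

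In edgeR's test GSK591 moved fewer members than MS023, and the calls in the authors' deposited tables are set out further on. At 2 days none passed beside 5.64% of all genes called (4430 genes at an unadjusted p under 0.05, none of the members in DESeq2). At 4 days AKR1C3 rose from 39.8 and 39.9 to 57.1 and 64.1 CPM (0.60 ± 0.16, adjusted p = 0.0080) and TXNRD1 fell from 274 and 233 to 132 and 143 CPM (-0.88 ± 0.27, adjusted p = 0.032), beside 17.2% of all genes called (8.91% higher, 8.28% lower). Of the genes averaging 5 CPM or more, 25.2% were called at 4 days, so 2 of 9 members is near that share. At 7 days none passed beside 13.2% of all genes called (6.68% higher, 6.52% lower, 5967 genes at an unadjusted p under 0.05, none of the members in DESeq2), with TXNRD1 at -0.67 (adjusted p = 0.12) and NQO1 at -0.57 (adjusted p = 0.27). The 158 and 161 CPM of TXNRD1 and the 19.5 and 22.9 CPM of NQO1 at 7 days lay below both untreated values. Both passed without replicate 2 of Dex with MS023 (TXNRD1 adjusted p = 0.010, NQO1 adjusted p = 0.0025), and AKR1C3 at 2 days did so too (0.43, adjusted p = 0.0089).

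The 2 calls at 4 days were sensitive to single libraries. TXNRD1 missed the threshold without any 1 of the 4 libraries compared (-0.76 to -0.99, adjusted p 0.067 to 0.18) and on total-count scaling (-0.46, adjusted p = 0.39). AKR1C3 missed it without untreated replicate 1 (0.60, adjusted p = 0.061), without untreated replicate 2 (0.61, adjusted p = 0.057) and without replicate 2 of GSK591 (0.52, adjusted p = 0.085).

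GSK591 and MS023 were given at the same 1 µM dose and the same times, so they can be set against each other directly, in 3 pairs. At 7 days GCLC was lower with GSK591 (30.6 and 37.0 CPM) than with MS023 (54.2 and 62.5 CPM), a log2 difference of -0.79 ± 0.14 (adjusted p = 0.00020 in edgeR's test), which also passed without any 1 of the 4 libraries. It was the 1 member called, beside 9.38% of all genes. No member passed at 2 days (2.69% of all genes called, 3120 at an unadjusted p under 0.05) or at 4 days (6.03%, 4057 genes), where DESeq2 called 1 member (AKR1C2 at 2 days, -0.64, adjusted p = 0.048) and none. The differences for AKR1C1 were -0.67 (95% interval -1.20 to -0.15), -0.46 (-0.98 to 0.07) and -0.62 (-1.15 to -0.10) at 2, 4 and 7 days. For SRXN1 they were -0.05 (-0.60 to 0.49), 0.07 (-0.48 to 0.61) and -0.26 (-0.82 to 0.29), intervals that leave room for differences in both directions. Without replicate 2 of Dex with MS023, NQO1 at 2 days (-0.59, adjusted p = 0.0016), GCLC at 4 days (-0.40, adjusted p = 0.027), and GCLM (-0.65, adjusted p = 0.0018), NQO1 (-0.78, adjusted p = 2.0e-05) and AKR1C3 (-0.45, adjusted p = 0.0028) at 7 days passed as well.

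Set over libraries, MS023 for days without 3 h of Dex marked off GCLC and AKR1C1. All 8 such libraries lay above all 22 others for these 2 genes (GCLC 51.7 to 62.5 against at most 44.6 CPM, AKR1C1 311 to 372 against at most 274 CPM). Only 0.14% of all genes tested did the same. GCLM had 6 of the 8 above all others, AKR1C2, NQO1, AKR1C3 and SRXN1 had 1 each, and AKR1B10 and TXNRD1 had 0. This split too was noticed in the values and has no test.

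The neighbouring copies AKR1C1 and AKR1C2 parted under Dex. Within a library, the ratio of AKR1C2 to AKR1C1 counts does not depend on the scaling between libraries. It was 0.747 and 0.685 in the untreated libraries, 0.860 and 0.931 after 15 min of Dex and 1.22 and 1.02 after 3 h. With GSK591 or MS023 given alongside for 3 h it was 1.15 and 1.17, and 1.37 and 1.32. Even replicate 2 of Dex with MS023, which stood apart for GCLC, GCLM and TXNRD1, lay beside its replicate 1 here, and both were above the libraries with 3 h of Dex alone. In cells given GSK591 for 7 days the ratio was 0.629 and 0.626 before and 0.907 and 0.816 after 3 h of Dex, and with MS023 it was 0.528 and 0.575 before and 0.876 and 0.846 after. All 10 libraries with 3 h of Dex thus had a ratio of 0.816 or more, and the 18 libraries that were untreated or had an inhibitor without 3 h of Dex, including those with 15 min of Dex after an inhibitor, had 0.528 to 0.747. The 2 libraries with 15 min of Dex alone (0.860 and 0.931) lay among the former. The pattern was noticed in the values and is given without a test, and reads shared between the copies could move the ratio.

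**Figure D4:**
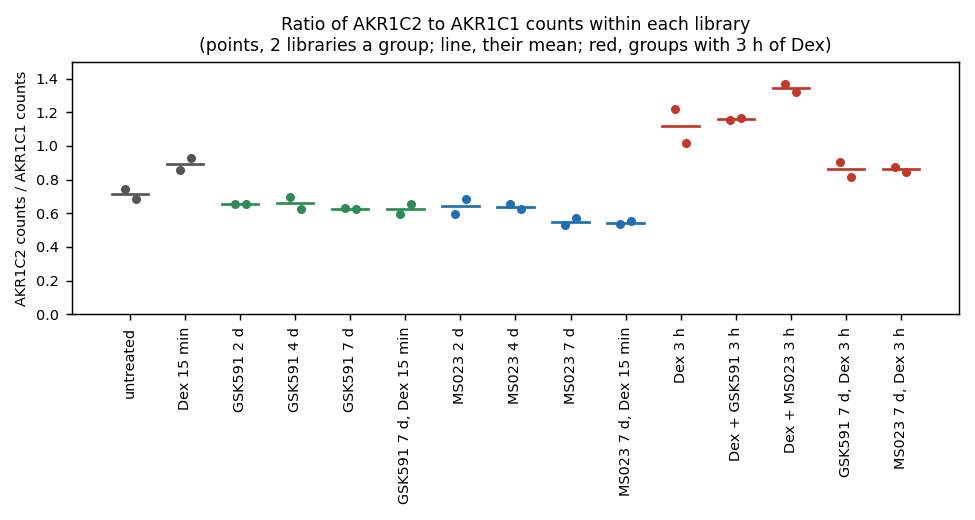
Ratio of AKR1C2 to AKR1C1 counts within each of the 30 libraries, by group (points, libraries; lines, means of 2; red, groups with 3 h of Dex). The red points run from 0.816 to 1.37, and the untreated points are at 0.747 and 0.685.

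The members did not move as 1 block. Over the 15 group means (log2 CPM), each member was set against the mean profile of all 9, which contains it. GCLC was closest to that profile (r = 0.970), followed by GCLM (0.949), SRXN1 (0.920), AKR1C3 (0.835), AKR1C1 (0.832), NQO1 (0.779) and TXNRD1 (0.773), with AKR1C2 (0.492) and AKR1B10 (0.388) last. AKR1C1 went with AKR1C3 (r = 0.890) more than with its near copy AKR1C2 (r = 0.578), and AKR1B10 showed r = 0.046 with AKR1C1. Among the same 11117 genes, the 5 non-members most like the mean profile were EDN1 (r = 0.960), TGIF1 (0.959), DENND1A (0.944), AMBRA1 (0.942) and AGK (0.937). These correlations are over 15 groups that share libraries' depth and scaling, and carry no test.

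The genes that control NRF2 were looked at as a list of 12, all of them tested, beside 10.5%, 9.85% and 11.1% of all genes called with 3 h of Dex from untreated, GSK591 and MS023 cells. MAFK, a small MAF partner, went from 42.4 and 43.1 CPM untreated to 15.2 and 14.4 CPM after 3 h of Dex (-1.53 ± 0.13, adjusted p = 2.6e-13), and fell also when Dex followed 7 days of GSK591 (-2.07) or MS023 (-1.70). MAFG, another small MAF, fell in the same 3 settings (-0.68, -0.93 and -1.21). SQSTM1, whose p62 protein binds KEAP1 (-0.69), and BTRC, which encodes a ubiquitin ligase subunit that recognises NRF2 (-1.06), were the other 2 called lower with Dex in untreated cells. In edgeR's test NFE2L2 itself was at -0.25 and -0.18 without a call from untreated and GSK591 cells. NFE2L2 fell by 0.65 on the log2 scale from MS023 cells (adjusted p = 8.3e-05). The authors' deposited table for 3 h of Dex calls NFE2L2 (-0.77) and KEAP1 (-0.55) lower, beside 21.9% of genes with an adjusted p. In all, edgeR's test called 0 of 12 higher and 4 lower from untreated cells, 1 higher and 3 lower after GSK591, and 1 higher and 6 lower after MS023. NFE2L1, an NRF2 relative, was the 1 that rose (0.72 and 0.69), BACH1, a repressor at the same elements, fell after GSK591 (-1.12), and MAFF (-0.61), KEAP1 (-0.46) and SQSTM1 (-1.02) fell after MS023.

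Against untreated cells, 3 of the 12 regulators were called lower after 7 days of GSK591, NFE2L1 (-0.65), NFE2L3 (-0.62) and SQSTM1 (-0.57), and none higher, beside 13.2% of all genes called (6.68% higher, 6.52% lower). With MS023 for 7 days, beside 13.6% (7.13% higher, 6.51% lower), MAFG (0.43), KEAP1 (0.34) and SQSTM1 (0.31) rose and NFE2L1 (-0.53), NFE2L3 (-0.33) and MAFK (-0.32) fell. In edgeR's test NFE2L2 was not called with either (-0.30 and 0.12), nor were CUL3 (-0.15 and -0.15), RBX1 (-0.04 and -0.67), BTRC (-0.10 and 0.09), BACH1 (0.32 and 0.12) and MAFF (0.42 and 0.19). The authors' deposited table for 7 days of GSK591 calls NFE2L2 (-0.43) and KEAP1 (-0.47) lower, beside 23.8% of genes with an adjusted p. Their table for 7 days of MS023 calls neither NFE2L2 (0.04) nor KEAP1 (0.26), beside 22.0%. CUL3 (-0.38) and RBX1 (-0.02), parts of the ligase that acts on NRF2, were not called with 3 h of Dex either.

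Other genes of the pathway were grouped in lists and are described by counts, to be read beside the 10.5% of all genes called with 3 h of Dex (6.11% higher, 4.41% lower). With 3 h of Dex, 3 of 13 tested genes for glutathione handling fell and 1 rose: SLC7A11, the cystine transporter (-1.47 ± 0.35, adjusted p = 0.012), ABCC2 (-1.0) and ABCC1 (-0.63), export pumps, were lower, and GLRX, a glutaredoxin, was higher (0.66). Of 13 detoxification genes 4 were called lower and none higher, led by OSGIN1 (-2.25 ± 0.12, adjusted p = 6.1e-20), CYP4F11 (-1.57) and PTGR1 (-0.77), with TRIM16L (-0.59) last. HMOX1, heme oxygenase, was the 1 of 7 iron and heme genes that fell (-1.05), SESN2 the 1 of 9 thioredoxin and peroxiredoxin genes that rose (0.65), and 0 of 7 NADPH genes and 0 of 7 other aldo-keto reductases passed. List medians were -0.19 for glutathione, -0.44 for detoxification and 0.18 for thioredoxin genes, beside -0.01 over all genes.

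At 7 days 13.6% of all genes were called with MS023 (7.13% higher) and 13.2% with GSK591 (6.68% higher, 6.52% lower). After MS023, 7 of the 13 detoxification genes were called higher and none lower, among the 7 CES1, a carboxylesterase (1.5 ± 0.37, adjusted p = 0.0065), PTGR1 (0.68) and ALDH3A1 (0.66). Of the glutathione genes 3 of 13 rose, GLRX (1.20), GPX2 (0.85) and ABCC3 (0.36), and FTL, the ferritin light chain (0.51), was the 1 of 7 iron and heme genes. After 7 days of GSK591, 2 detoxification genes rose (ALDH3A1 0.97, EPHX1 0.96) and OSGIN1 fell (-0.81), 3 glutathione genes rose (GLRX 0.97, ABCC3 0.43 and ABCC1 0.41) and SLC3A2 fell (-0.52), and BLVRB fell (-0.63). AKR1B1, the aldose reductase gene beside AKR1B10, rose 2.41-fold (1.27 ± 0.19, adjusted p = 3.8e-05) while AKR1B10 was at -0.04. SESN2 rose with both inhibitors (0.53 with GSK591, 0.48 with MS023), as did TXNIP, an inhibitor of thioredoxin at under 2 CPM (2.51 and 2.68), which like ABCC1 and TRIM16L was named after its values were seen. The 2 comparisons share the untreated libraries. The list medians at 7 days were 0.38 for detoxification and 0.29 for glutathione genes with MS023, and 0.13 and 0.01 with GSK591.

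**Figure D5:**
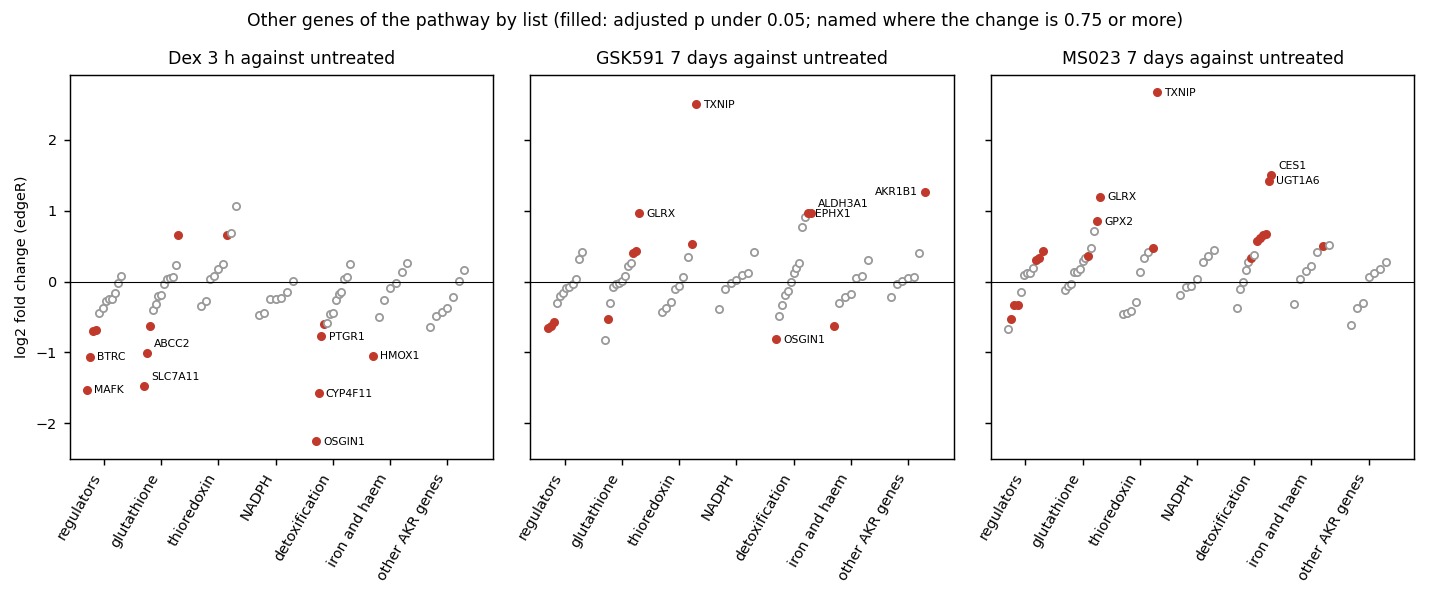
Log2 change of the NRF2 regulators and 6 pathway lists with 3 h of Dex, 7 days of GSK591 and 7 days of MS023. Each comparison is against untreated cells. Each point is 1 gene, filled where the adjusted p was under 0.05, and the horizontal line marks no change. The members are not drawn, and their medians are -0.29, 0.07 and 0.52. OSGIN1 at -2.25 with Dex lies lowest among the detoxification genes.

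The authors' deposited tables give their own log2 fold changes against untreated cells for 8 of the 9 members (GCLM was not found in them by name). Over the 64 pairs of a member and a comparison made both ways, 56 had the same sign. The authors' deposited tables call 48 of the 64 (adjusted p under 0.05). EdgeR's test called 15, all called there in the same direction. For 3 h of Dex the authors call 1 of 8 members higher (AKR1C2) and 7 lower, beside 21.9% of genes with an adjusted p. For 15 min of Dex they call 3 higher and 0 lower, beside 3.93%. The authors call 4, 5 and 2 of 8 members higher and 1, 2 and 4 lower after 2, 4 and 7 days of GSK591. With MS023 they call 6, 5 and 5 higher and 1 lower each time. Of genes with an adjusted p they call 14.7%, 26.8% and 23.8% with GSK591 and 17.7%, 22.5% and 22.0% with MS023. The authors' deposited table for 3 h of Dex gives TXNRD1 -1.40 and GCLC -0.97, beside -1.29 and -0.71 from the counts, and AKR1C2 0.55 beside 0.59. The widest gaps in that comparison were SRXN1, at -1.77 in the authors' deposited table and -0.21 from the counts, and AKR1C1, at -0.88 and -0.01. After 4 and 7 days of GSK591 the authors' deposited tables call SRXN1 lower (-0.75 and -0.59), beside 0.32 and 0.22 from the counts. For 7 days of MS023 the authors' deposited table gives AKR1C1 1.35, GCLC 0.67 and AKR1C2 0.68, beside 1.04, 0.59 and 0.66. How the tables' reads were counted is not given in the sources used here, and the source of the gaps was not tested.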

How the data were processed

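PRO-seq libraries of A549 cells, 2 for each of 15 groups named in the sample labels, were analysed from the whole-number read counts per gene that the authors deposited. Counting was done with featureCounts 2.0.1 of the Subread package on hg38, per the submitters' processing notes. The aligner, the feature type, the strand setting and the treatment of reads that match several places are not given in the sources used here. The authors also deposited 14 tables of comparisons with untreated cells, whose headers, per the file headers, give a mean normalised count (a signal value), a log2 fold change with its error, and a p-value with its adjusted form. Those headers are DESeq2's, and the log2 fold changes are quoted, with calls at an adjusted p under 0.05.

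All 58780 identifiers matched GENCODE 29, which gave coordinates, and exonic lengths for per-kilobase levels. Genes were kept with edgeR's filterByExpr (minimum count 10, minimum total 15), leaving 22919. Libraries were scaled by TMM, and 1 robust quasi-likelihood model over the 15 groups was fitted in edgeR 4.0.16 (limma 3.58.1, R 4.3.3). Tests were 2-sided for 19 contrasts, with Benjamini-Hochberg adjustment over all genes tested and a threshold of 0.05. The code was tested on simulated data. Depth was 8441211 to 13069598 counts a library. Alternatives were DESeq2 1.42.0, DESeq2 size factors, total-count scaling, no low-count filter, a replicate block, removal of mitochondrial and ribosomal RNA genes, the compared groups alone, leaving out each library, and, chosen after seeing the data, leaving out replicate 2 of Dex with MS023 from every fit.

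The 9 genes and all lists were chosen with earlier results of these data known. Genes named beyond the 9 are all 12 NRF2 regulators, in each pathway list the 3 called genes with the largest change and a mean of at least 2 CPM, and the 5 genes most like the 9 over the groups, and the text says where one was added.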

Additional observations from a re-analysis of the deposited data

Results flagged for a closer look

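For 2 genes of the pathway lists the response to 3 h of Dex differed between untreated cells and cells given GSK591 for 7 days, by the interaction term of edgeR's quasi-likelihood test with Benjamini-Hochberg adjustment over 22919 genes. ALDH3A1, an aldehyde dehydrogenase, changed by 0.06 from untreated cells and by -0.77 from GSK591 cells, a difference of -0.83 ± 0.16 (SE, n = 2 libraries a group, adjusted p = 0.0064). GLRX, a glutaredoxin, changed by 0.66 and by -0.27, a difference of -0.92 ± 0.19 (adjusted p = 0.014). Both had risen with GSK591 alone (0.97 each). With MS023 in place of GSK591 the differences were -0.28 (adjusted p = 0.62) and -0.36 (adjusted p = 0.55), and whether the 2 inhibitors differ in this was not tested. Both calls ended on total-count scaling (-0.79 and -0.87, adjusted p = 0.9999 each), where no gene passed and 914 had an unadjusted p under 0.05 (DESeq2 called both genes), and without untreated replicate 1 (-0.75, adjusted p = 0.102 and -0.90, adjusted p = 0.104), where 10 genes in place of 51 passed. The GLRX call also ended without Dex 3 h replicate 1 (-0.69, adjusted p = 0.169) and without GSK591 7 days replicate 1 or 2 (adjusted p = 0.0650 and 0.0625), and both kept their direction in all of these fits.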

How the results depend on the processing

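Every called change of a member kept its direction under every alternative. The counts of called members that moved by more than 1.5 times were these. Scaled to total counts, 1 member was called with Dex for 15 min, 1 (AKR1C2, higher) with Dex for 3 h in place of 3, 8, 7 and 8 with MS023 for 2, 4 and 7 days in place of 4 each, 4 with GSK591 for 4 days in place of 2, 3, 3 and 9 between GSK591 and MS023 at 2, 4 and 7 days in place of 0, 0 and 1, and 1 and 3 with Dex for 3 h after GSK591 and MS023 in place of 4 and 5. DESeq2 called 1 with Dex for 15 min, 1 for Dex with MS023 against Dex, and 1 and 2 between the inhibitors at 2 and 7 days. Fitted on the compared groups alone, 1 was called with Dex for 15 min, 5, 5 and 3 with GSK591 and 7, 7 and 7 with MS023 at 2, 4 and 7 days, 5, 5 and 7 between them, 2 and 8 with Dex for 15 min and 3 h after MS023, and 1 for the MS023 interaction. Without the filter on low counts 1 was called with Dex for 15 min, 1 for Dex with MS023 against Dex, 1 with GSK591 for 2 days, and 1, 1 and 4 between the inhibitors. DESeq2 size factors and removal of mitochondrial and ribosomal RNA genes left every count as it was. Total-count scaling ended the calls of GCLC, GCLM and TXNRD1 with Dex for 3 h, of GCLC, TXNRD1 and SRXN1 with Dex for 3 h after GSK591, of TXNRD1 and SRXN1 with it after MS023, and of TXNRD1 with GSK591 for 4 days. TXNRD1 with GSK591 for 4 days also missed the threshold without the filter (-0.88, adjusted p = 0.0656 in edgeR's test).

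Leaving out 1 library at a time, replicate 2 of Dex with MS023 included, the counts of called members ranged from 1 to 4 with Dex for 3 h, 0 to 4 for Dex with MS023 against Dex, 0 to 1, 0 to 2 and 0 to 2 with GSK591 for 2, 4 and 7 days, 0 to 6, 0 to 6 and 0 to 5 with MS023, 0 to 1, 0 to 1 and 1 to 4 between the inhibitors, and 2 to 4 and 3 to 8 with Dex for 3 h after GSK591 and MS023. They stayed at 0 in the other 6 comparisons. A group left with 1 library is assumed to vary like the others.

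Whether the replicate numbers pair some of the samples is not settled. Over 105 pairs of groups, same-numbered deviations correlated at -0.453 to 0.493 (median 0.020), with 22 pairs above 0.1 and 13 below -0.1. With the numbers as a replicate block, 2 members in place of 1 were called between GSK591 and MS023 at 7 days (GCLM added), 6 in place of 4 with MS023 for 2 days, 5 in place of 4 with MS023 for 7 days and 6 in place of 5 with Dex for 3 h after MS023. Other counts of members were as without it.

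Of all genes, total-count scaling called 1259 with Dex for 3 h (against 2410), 122 for Dex with MS023 against Dex (45), 9228, 11285 and 16196 with MS023 (2381, 3247 and 3127), 1135 with GSK591 for 7 days (3026), 1108 and 16029 between the inhibitors at 2 and 7 days (617 and 2149), 72 and 71 with Dex for 15 min after GSK591 and MS023 (480 and 474), 1363 and 1007 with Dex for 3 h after them (2258 and 2543), and 0 and 0 for the interactions (51 and 51). The share of higher calls then moved from 58.1% to 81.9% with Dex for 3 h, from 76.1% to 99.6% with Dex for 15 min, from 54.7% to 80.9% with Dex for 3 h and 51.0% to 91.7% with Dex for 15 min after GSK591, from 68.9% to 98.4% for Dex with MS023 against Dex, from 59.5%, 55.1% and 52.3% to 99.2%, 99.0% and 99.5% with MS023, from 56.6% and 51.8% to 97.5% and 93.5% with GSK591 for 2 and 4 days, and from 41.3%, 41.7% and 52.3% to 4.33%, 5.89% and 0.605% between the inhibitors. DESeq2 called 1522 genes with Dex for 3 h, 661, 2483 and 1834 with GSK591 (against 1292, 3941 and 3026), 1344, 1869 and 1813 with MS023, 313, 738 and 1138 between the inhibitors (against 617, 1382 and 2149), 284 and 264 with Dex for 15 min and 1391 and 1528 with Dex for 3 h after GSK591 and MS023, and 33 for the MS023 interaction. The compared groups alone gave 16 and 0 for GSK591 and MS023 added to Dex (0 and 45), 2277 and 3952 with GSK591 and MS023 for 2 days, 1106 and 2402 between them at 2 and 4 days, 170 and 715 with Dex for 15 min after GSK591 and MS023, and 146 for the MS023 interaction. Without the filter there were 2 and 508 genes for GSK591 and MS023 added to Dex, and 109 and 125 for the interactions, and with the block 114 for MS023 added to Dex and 81 for the MS023 interaction. Leaving out 1 library at a time, the genes called ranged from 120 to 345 and 1355 to 2836 with Dex for 15 min and 3 h, 0 to 2388 for MS023 added to Dex, 377 to 1681, 2140 to 4457 and 1574 to 3488 with GSK591, 964 to 2983, 1475 to 3865 and 1525 to 3797 with MS023, 223 to 781, 594 to 1695 and 1026 to 2572 between the inhibitors, 149 to 660 and 178 to 623 with Dex for 15 min and 1201 to 2526 and 1428 to 2960 with Dex for 3 h after GSK591 and MS023, and 10 to 125 and 10 to 161 for the interactions. For MS023 added to Dex the 2388 came without replicate 1 of the combination and the 0 without replicate 2 of Dex. The cause of these differences was not tested. The members' lowest counts were 63 in a library for SRXN1 and 67 for GCLM.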
